A study of Mus musculus with 2 samples.

Results

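The genes of the mitochondrial ribosomal proteins were described in mouse blood progenitors with and without Trsp, the gene of the selenocysteine tRNA. Members were all gene symbols that start with Mrpl or Mrps and a digit and that had at least 50 unique molecular identifiers (UMIs, 1 per captured mRNA molecule) over both libraries. All 78 matching symbols in the files passed, and the lowest of them, Mrps27 and Mrps2, had 5797 and 7201 UMIs, so no gene lay near the threshold. By where their proteins sit, 51 members were taken as large subunit genes (49 named Mrpl, with Mrps18a and Mrps30), 26 as small subunit genes, and Mrps36 as neither.

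Lineage-, cKit+ cells were taken from femora and tibiae of C57BL/6 mice, frozen and thawed, and profiled as 1 10x 3′ library for each genotype. The control was Trsp f/f, which carries the floxed gene but no Cre, and the knockout was Trsp f/f:Mx1-Cre, in which an interferon-inducible Cre acts in blood cells and in other tissues that respond to interferon. Both genotypes were given 3 pI-pC injections of 500 µg, the series record gives 7 weeks after birth for these in a wording that leaves the age open, and marrow was taken 9 weeks after the last one. The labels do not say how many mice each library pools. With 1 library per group no difference was tested, and every interval is an exact 95% interval that covers counting error only.

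The mitochondrial ribosome translates the few mRNAs of mitochondrial DNA, which encode core subunits of the respiratory chain and ATP synthase. All of its proteins are encoded in the nucleus, made in the cytosol and imported, and they assemble with ribosomal RNAs of mitochondrial DNA into a large subunit, which forms the peptide bond, and a small subunit, which decodes the mRNA. Some of these proteins descend from bacterial ribosomal proteins and others are found only in mitochondria. Blood stem cells are known for low mitochondrial activity and a low rate of protein synthesis, and committed myeloid and erythroid progenitors for higher ones.

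The members lie on 17 chromosomes. Their promoters were set beside each other, from RefSeq on GRCm38.p6, for 69 members, and any part of the promoters in the levels across cell classes was not tested. Windows ran from 250 bases before to 50 after each start, and both strands were searched for 3 motifs spelled GCGCANGCG (bound by NRF1), CCGGAAGT (bound by ETS factors such as GABPA) and AANATGGCG (bound by YY1). The NRF1 letters were in 16 of 69 members (23.2%), against 19.0% of 4897 genes measured over all kept cells and 7.03% of all 27025 genes. The ETS letters were in 12 (17.4%, against 11.6% and 4.31%), and the YY1 letters in 11 (15.9%, against 8.07% and 2.76%). At least 1 of the 3 was in 36 members (52.2%) and in 34.0% of measured genes, and a promoter with several was counted under each. The 250 bases before the start are printed for 3 members with NRF1 letters and 1 with ETS letters. They are also printed for Mrpl33, with the widest range across cell classes, and for Mrpl52, with the reverse order of stem cell-like and neutrophil progenitor-like cells. Both of these hold the ETS letters too, across the start in Mrpl33 and just after it in Mrpl52, so that no whole match lies in the bases shown for them. Capitals mark a match on either strand, and a match is a run of letters, not a shown binding site.
Mrpl12 (chr11:120484387-120484636, plus strand): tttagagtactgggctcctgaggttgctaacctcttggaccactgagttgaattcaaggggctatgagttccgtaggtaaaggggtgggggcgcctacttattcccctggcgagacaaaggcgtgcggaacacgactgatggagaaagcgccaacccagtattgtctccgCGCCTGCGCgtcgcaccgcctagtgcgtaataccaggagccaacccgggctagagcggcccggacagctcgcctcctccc
Mrps21 (chr3:95871515-95871764, minus strand): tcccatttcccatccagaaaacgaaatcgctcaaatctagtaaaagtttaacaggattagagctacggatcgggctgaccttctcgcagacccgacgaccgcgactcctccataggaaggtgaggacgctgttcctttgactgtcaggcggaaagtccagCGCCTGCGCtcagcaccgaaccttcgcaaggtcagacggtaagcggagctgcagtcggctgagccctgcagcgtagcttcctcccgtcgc
Mrpl45 (chr11:97315466-97315715, plus strand): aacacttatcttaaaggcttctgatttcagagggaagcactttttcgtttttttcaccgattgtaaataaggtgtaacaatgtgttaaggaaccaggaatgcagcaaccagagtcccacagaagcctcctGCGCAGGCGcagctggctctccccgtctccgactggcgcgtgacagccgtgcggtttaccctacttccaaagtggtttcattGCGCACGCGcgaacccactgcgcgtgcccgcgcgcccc
Mrpl51 (chr6:125191950-125192199, plus strand): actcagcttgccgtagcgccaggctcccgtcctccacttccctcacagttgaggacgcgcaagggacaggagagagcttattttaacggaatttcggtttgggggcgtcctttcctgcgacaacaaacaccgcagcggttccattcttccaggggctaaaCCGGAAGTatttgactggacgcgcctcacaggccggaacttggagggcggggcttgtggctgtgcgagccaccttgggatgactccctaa
Mrpl33 (chr5:31613701-31613950, plus strand): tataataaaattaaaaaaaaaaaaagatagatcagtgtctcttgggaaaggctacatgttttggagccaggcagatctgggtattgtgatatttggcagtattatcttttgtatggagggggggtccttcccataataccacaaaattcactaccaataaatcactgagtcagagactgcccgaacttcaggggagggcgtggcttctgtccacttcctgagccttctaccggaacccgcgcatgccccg
Mrpl52 (chr14:54426659-54426908, plus strand): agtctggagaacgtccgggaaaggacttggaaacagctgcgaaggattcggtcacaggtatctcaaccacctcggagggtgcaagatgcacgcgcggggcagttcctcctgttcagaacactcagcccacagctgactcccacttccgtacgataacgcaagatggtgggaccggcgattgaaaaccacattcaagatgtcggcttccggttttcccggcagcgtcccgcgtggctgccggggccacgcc

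Mitochondrial ribosomal protein mRNAs made up 0.726% of UMIs in control and 0.669% in knockout cells. Their levels are given as CPM, UMIs scaled to a total of 1000000 per cell class. UMIs count molecules and do not grow with mRNA length, though how well each 3′ end is captured differs between genes. Over all kept control cells, members ranged from Mrps27 at 17.7 CPM to Mrpl33, a large subunit protein with a bacterial homologue, at 440 CPM. Mrps27 stayed under the 20 CPM floor for a measured gene in both libraries, and the other 77 members were measured.

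Kept cells numbered 8046 in control and 6640 in knockout, with median depths of 20352 and 20744 UMIs. Of knockout cells 17.0% had under 5000 UMIs, against 3.44% of control cells. Barcodes shared by the libraries numbered 39, of which 10 were kept in both. The Trsp RNA was not analysed here. Gpx1 mRNA, which encodes a selenoprotein, was at 1508 CPM in control and 253 CPM in knockout, and Kit was at 98.8 and 114 CPM. Cells were gated by at least 3 markers of a class, and 5 classes had at least 100 cells in both libraries. These held 446 control and 364 knockout hematopoietic stem cell (HSC)-like cells, 762 and 780 multipotent or lymphoid-primed (MPP/LMPP)-like cells, 2572 and 1697 neutrophil progenitor-like, 1529 and 1111 monocyte progenitor-like, and 398 and 240 basophil or mast-like cells. A gate is a cut through a range: 170 control and 130 knockout HSC-like cells sat on it with exactly 3 markers, and 70 and 49 cells fell 1 marker short. No class was given to 1945 control (24.2%) and 2063 knockout (31.1%) kept cells, which enter the values over all kept cells but no class comparison.

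Both subunits followed the same order across cell classes in the control library, lowest in HSC-like cells and highest in neutrophil progenitor-like cells among the 5 classes compared. Large subunit genes summed to 3344 CPM (3296 to 3392) in HSC-like cells. They reached 3620 CPM in MPP/LMPP-like, 3858 CPM in basophil or mast-like, 5141 CPM in monocyte progenitor-like and 5576 CPM (5557 to 5595) in neutrophil progenitor-like cells. Small subunit genes summed to 1567, 1647, 1766, 2230 and 2657 CPM in the same order of classes. No counting interval overlapped that of a neighbouring class in the control library. The knockout library had the same order, from 3057 to 5069 CPM for the large and from 1394 to 2389 CPM for the small subunit. There the intervals of MPP/LMPP-like and basophil or mast-like cells overlapped for both subunits (3443 to 3504 and 3484 to 3594 CPM for the large, 1552 to 1592 and 1580 to 1655 CPM for the small). The ratio of large to small subunit UMIs stayed within a narrow range, from 2.10 in neutrophil progenitor-like to 2.31 in monocyte progenitor-like control cells.

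**Figure D1:**
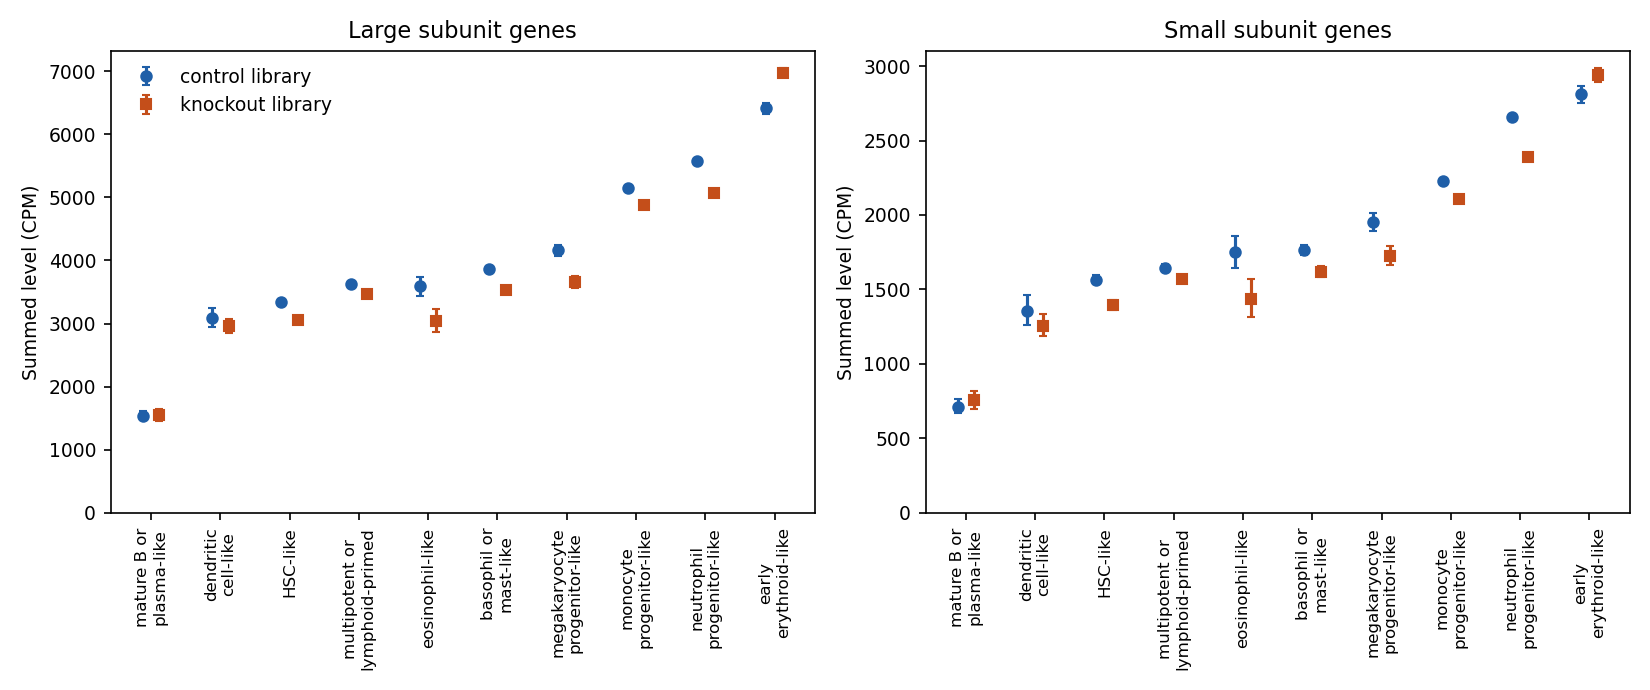
Summed CPM of large (left) and small (right) subunit genes on the vertical axes in 10 marker-gated classes on the horizontal axes, with circles for the control and squares for the knockout library and bars for 95% counting intervals. Mature B or plasma-like cells sat lowest at 1542 CPM for the large subunit in control, and early erythroid-like cells highest at 6409 CPM, the class in which the knockout value lay above the control value for both subunits with intervals apart.

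Classes with fewer than 100 cells in a library extended this range. Early erythroid-like cells (92 control, 118 knockout) had the highest sums, 6409 CPM for the large and 2810 CPM for the small subunit in control. Mature B or plasma-like cells (52 and 31) had the lowest, 1542 and 713 CPM. In these cells the 6 B and plasma cell markers alone summed to 173617 CPM in control, and their part in the low sums was not tested. Dendritic cell-like cells (47 and 67) were at 3089 and 1358 CPM, close to HSC-like cells.

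The rise from HSC-like to neutrophil progenitor-like, monocyte progenitor-like and early erythroid-like cells involved most members. In control neutrophil progenitor-like cells, the median log2 ratio to HSC-like cells was 0.65 for 51 large and 0.72 for 24 measured small subunit genes, against −0.18 for all measured genes. At least 1.5-fold higher were 28 of 51 large and 17 of 24 small subunit genes, against 15.9% of all measured genes. In monocyte progenitor-like cells the counts were 23 of 51 and 10 of 25, against 17.8%. In basophil or mast-like cells they were 4 of 50 and 1 of 24 (11.7%), and in MPP/LMPP-like cells 0 of 51 and 0 of 25 (3.79%). Early erythroid-like cells had the most, 37 of 51 and 19 of 25, against 26.4%. The knockout library gave 32 of 51 and 17 of 25 for neutrophil progenitor-like (17.7%), 28 of 51 and 10 of 25 for monocyte progenitor-like (20.7%), and 43 of 51 and 23 of 26 for early erythroid-like cells (28.7%). Beside these, 77 measured cytosolic ribosomal protein genes had a median of 0.30 in control neutrophil progenitor-like cells, and the 13 mRNAs that the mitochondrial ribosome translates had a median of 0.11. Cell division genes, a list of 11, summed to 1267 CPM in HSC-like, 1481 CPM in neutrophil progenitor-like, 1647 CPM in MPP/LMPP-like, 1735 CPM in basophil or mast-like, 2209 CPM in monocyte progenitor-like and 2941 CPM in early erythroid-like control cells, which is not the order of the members, and their part in the class order was not tested.

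Single genes kept to this order to different degrees. In control, 38 of 51 large and 22 of 26 small subunit genes were highest in neutrophil progenitor-like cells, and 30 of 51 and 18 of 26 were lowest in HSC-like cells. The same counts were not made for all measured genes, so these do not set the members apart from other genes. Mrpl33 had the widest range of the large subunit, 181 CPM in HSC-like, 259 in MPP/LMPP-like, 315 in basophil or mast-like, 507 in neutrophil progenitor-like and 575 CPM in monocyte progenitor-like cells. That is a 3.17-fold span, and the knockout span was 2.87-fold. Unlike most members, Mrpl33 fell back to 246 CPM in early erythroid-like cells.

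Mrps15, a small subunit protein with a bacterial homologue, had the widest range of its subunit. Its control levels were 54.7 CPM in HSC-like, 62.7 in basophil or mast-like, 73.5 in MPP/LMPP-like, 116 in monocyte progenitor-like and 139 CPM in neutrophil progenitor-like cells. The span was 2.54-fold in control and 2.65-fold in knockout. After Mrpl33, the large subunit genes with the widest control spans were Mrpl18 (2.49-fold), Mrpl51 (2.25-fold), Mrpl58 (2.24-fold) and Mrpl20 (2.21-fold). After Mrps15, those of the small subunit were Mrps28 (2.03-fold), Mrps21 (2.02-fold), Mrps14 (2.01-fold) and Mrps6 (1.98-fold). Mrpl18, Mrpl51, Mrpl58, Mrpl20, Mrps28, Mrps21 and Mrps14 were lowest in HSC-like and highest in neutrophil progenitor-like control cells, while Mrps6 was highest in HSC-like and lowest in basophil or mast-like control cells.

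Some members went against the order, and Mrpl52 is named here after its values were seen. Mrpl52, a large subunit protein found only in mitochondria, was highest in HSC-like of the 5 compared classes, at 209 CPM in control and 197 CPM in knockout. It was lowest in neutrophil progenitor-like cells at 124 and 115 CPM, but reached 556 and 587 CPM in early erythroid-like cells. Its order between these 2 classes was thus the reverse of that of its subunit in both libraries. Mrps6 was at 39.5 CPM in HSC-like and 19.9 CPM in basophil or mast-like control cells, and at 28.6 and 15.9 CPM in knockout. In the knockout library, however, Mrps6 was highest in MPP/LMPP-like cells, at 37.2 CPM. Mrpl45, which helps to place the peptide exit of the ribosome at the inner membrane, was nearly level across the 5 control classes, between 37.3 and 41.0 CPM, a 1.10-fold span.

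**Figure D2:**
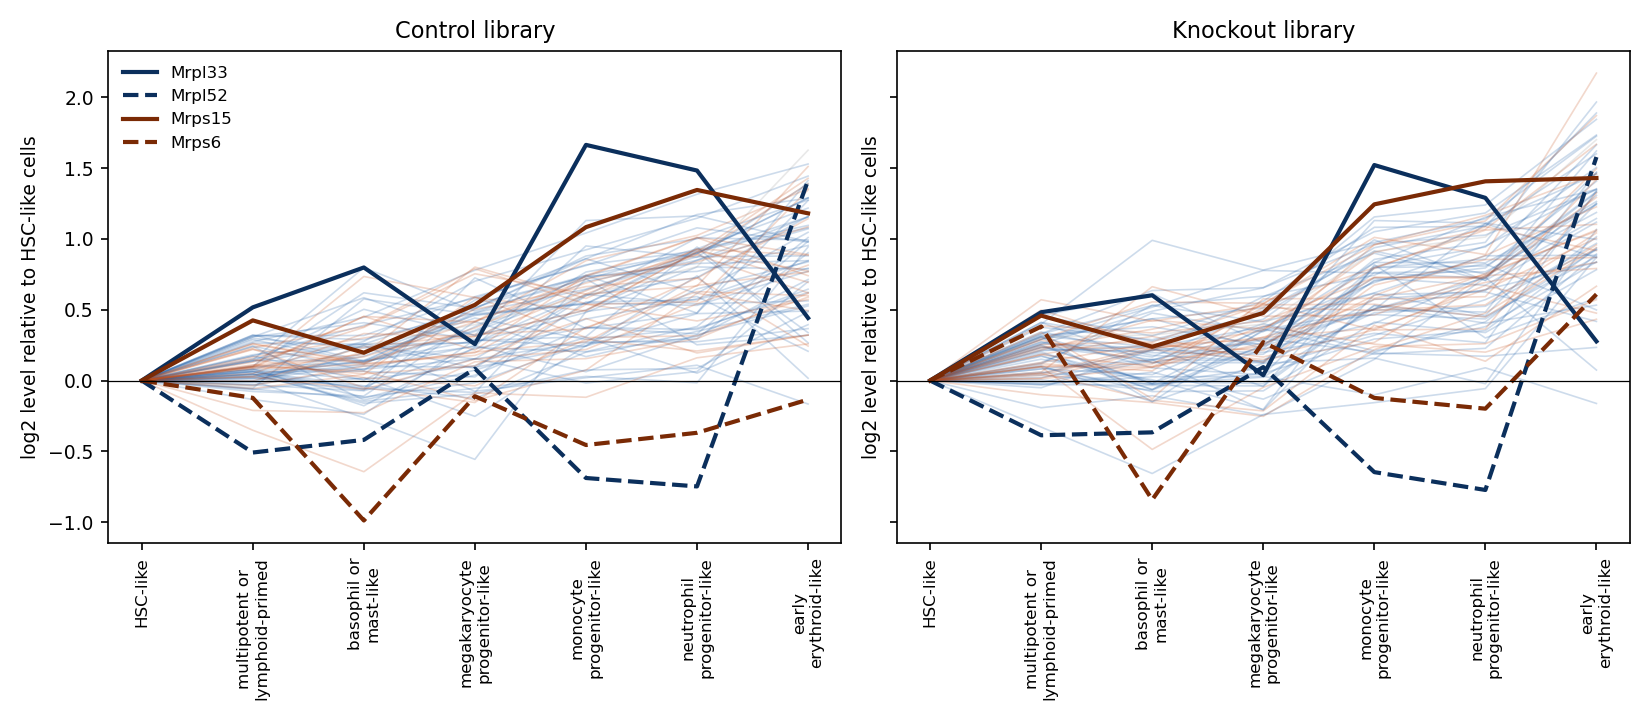
Log2 of each gene's CPM relative to HSC-like cells on the vertical axes, for HSC-like, MPP/LMPP-like, basophil or mast-like, megakaryocyte progenitor-like, monocyte progenitor-like, neutrophil progenitor-like and early erythroid-like cells on the horizontal axes, in the control (left) and knockout (right) library. Thin lines are members (blue large, red small subunit), most of which climb to the right, while the named Mrpl52 and Mrps6 lie below 0 in most classes of the control library.

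Per cell, the members' share of UMIs showed the same class order. The median HSC-like cell had 46.9 member UMIs per 10000 in control and 42.2 in knockout. The median neutrophil progenitor-like cell had 82.2 and 73.6, and the median early erythroid-like cell 89.4 and 100.1. Cells were then thinned to 5000 UMIs each to count how many of the 78 members gave at least 1 UMI. HSC-like cells then showed a median of 19 different members in control and 18 in knockout, against 35 and 36.5 without thinning, with 9 and 3 shallower cells left out. Neutrophil progenitor-like cells showed 29 and 27, against 62 in both libraries without thinning, with 44 and 314 cells left out. RNA free in the suspension also adds UMIs to droplets, so these counts of members are not counts of expressed genes.

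Against control, both subunits were slightly lower in the knockout library over all kept cells. Large subunit genes summed to 4914 CPM (4903 to 4924) in control and 4557 CPM (4546 to 4568) in knockout, a log2 ratio of −0.11. Small subunit genes summed to 2256 CPM in control and 2056 CPM in knockout, a log2 ratio of −0.13. Of 77 measured members 67 were below 0 (43 of 51 large, 23 of 25 small subunit genes and Mrps36), against 32.0% of all 6096 measured genes. The median member of each subunit was at −0.11 (large) and −0.13 (small), while the median of all measured genes was 0.08. Relative to that median, 73 of 77 members were lower. In bulk sums of this kind, fewer cells rich in these mRNAs and less of them per cell cannot be told apart, which is why the classes are given separately.

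The difference was small for nearly every member. The counting interval lay below 0 for 61 of 77 members and above 0 for 8, against 25.4% and 59.0% of all measured genes. No member had a log2 ratio of −0.32 or less (1.71% of all measured genes) and 1, Mrpl19, had one of 0.32 or more (6.07%). None was 1.5-fold lower or higher, against 0.607% and 1.02%. When libraries were scaled by the median ratio of measured genes instead of by total UMIs, 2 members were at −0.32 or less and 0 at 0.32 or more, with subunit medians of −0.19 and −0.21. Total UMIs include the cytosolic ribosomal protein mRNAs, which took 285407 CPM in control and 265744 CPM in knockout.

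**Figure D3:**
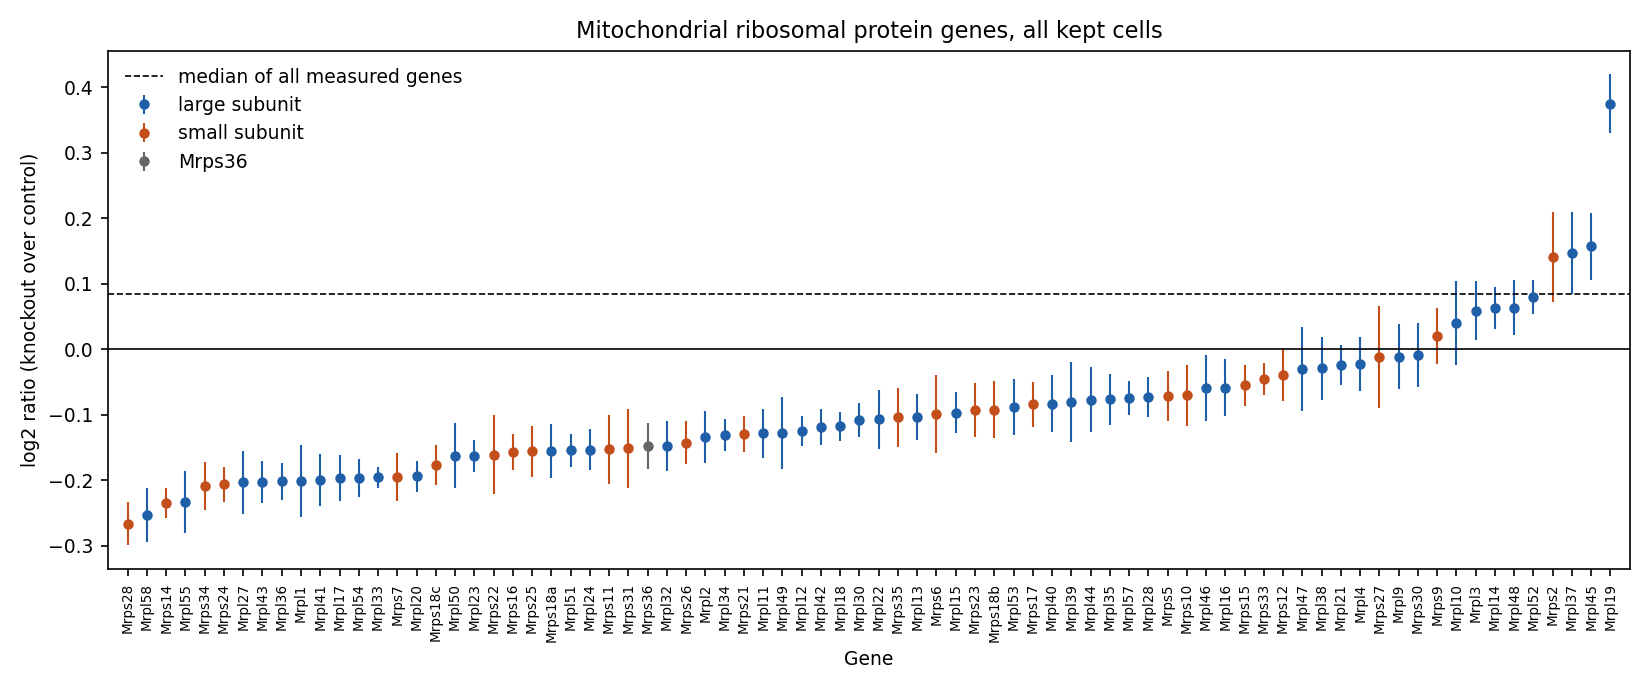
Log2 ratio of knockout over control (vertical axis) over all kept cells for each of the 78 members (horizontal axis), ordered by value, with bars for the 95% counting interval and colours for the subunit. Most members lie below 0, while Mrpl19 stands apart at 0.37 and the dashed line marks 0.08, the median of all measured genes.

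The lower values recurred in each of the 5 compared classes. HSC-like cells went from 3344 to 3057 CPM for the large subunit (log2 ratio −0.13, interval −0.16 to −0.10) and from 1567 to 1394 CPM for the small (−0.17, interval −0.21 to −0.12). Neutrophil progenitor-like cells went from 5576 to 5069 CPM and from 2657 to 2389 CPM, log2 ratios of −0.14 and −0.15. Basophil or mast-like cells went from 3858 to 3539 and from 1766 to 1617 CPM, log2 ratios of −0.12 and −0.13. Differences were smaller in monocyte progenitor-like cells (5141 to 4878 and 2230 to 2105 CPM, both −0.08). They were smallest in MPP/LMPP-like cells (3620 to 3473 and 1647 to 1572 CPM, −0.06 and −0.07). Whether these differences differ between classes was not tested.

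Gene by gene, 63 of 75 measured members were below 0 in HSC-like cells (46.4% of all measured genes) and 55 of 77 in MPP/LMPP-like cells (41.7%). In neutrophil progenitor-like cells 68 of 77 were below 0 (32.0%), and 72 were below the median of all measured genes, which was 0.11 there. The counts were 63 of 77 in monocyte progenitor-like (33.2%) and 61 of 74 in basophil or mast-like cells (42.8%). Without regard to the floor, 42 of the 78 members were lower in 5 of 5 classes, 18 in 4, 10 in 3, 1 in 2 and 4 in 1. This count was not made for all measured genes, and the classes come from the same pair of libraries, so it does not set the members apart. Mrpl19, Mrpl14 and Mrpl48, all of the large subunit and the last 2 named after their values were seen, were lower in none. At −0.32 or less were 11 of 75 members in HSC-like (5.20%) and 5 of 74 in basophil or mast-like cells (4.77%). No member was that low in MPP/LMPP-like (2.34%), neutrophil progenitor-like (1.69%) or monocyte progenitor-like cells (1.72%). The lowest HSC-like value was that of Mrps22, a mitochondria-specific small subunit protein, with 22.4 CPM in control and 15.2 CPM in knockout (log2 ratio −0.56). It rested on 127 and 80 UMIs, with the knockout level under the 20 CPM floor, and the median Mrps22 ratio over the 5 classes was −0.19.

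Values that moved with these differences were the mitochondrially encoded share of UMIs, which rose from 3.98% to 4.93% in HSC-like and from 3.99% to 4.65% in neutrophil progenitor-like cells, and the depth of cells. Among cells under 5000 UMIs, members summed to 4671 CPM in control and 6729 CPM in knockout, the opposite direction. In cells of 5000 to 20000 UMIs the sums were 6107 and 5110 CPM, and in deeper cells 7787 and 7111 CPM. Without the shallow cells the neutrophil progenitor-like medians were −0.15 for both subunits, against −0.15 and −0.16 with them. Neutrophil progenitor markers summed to 32194 CPM in control and 28986 CPM in knockout in that class, and HSC markers to 1256 and 1372 CPM in the HSC-like class, and the part of either in the result was not tested. Class definitions mattered most for HSC-like cells. When Leiden clusters named by the same markers replaced the gates, their subunit medians were −0.05 and −0.07, against −0.12 and −0.20 with the gates.

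**Figure D4:**
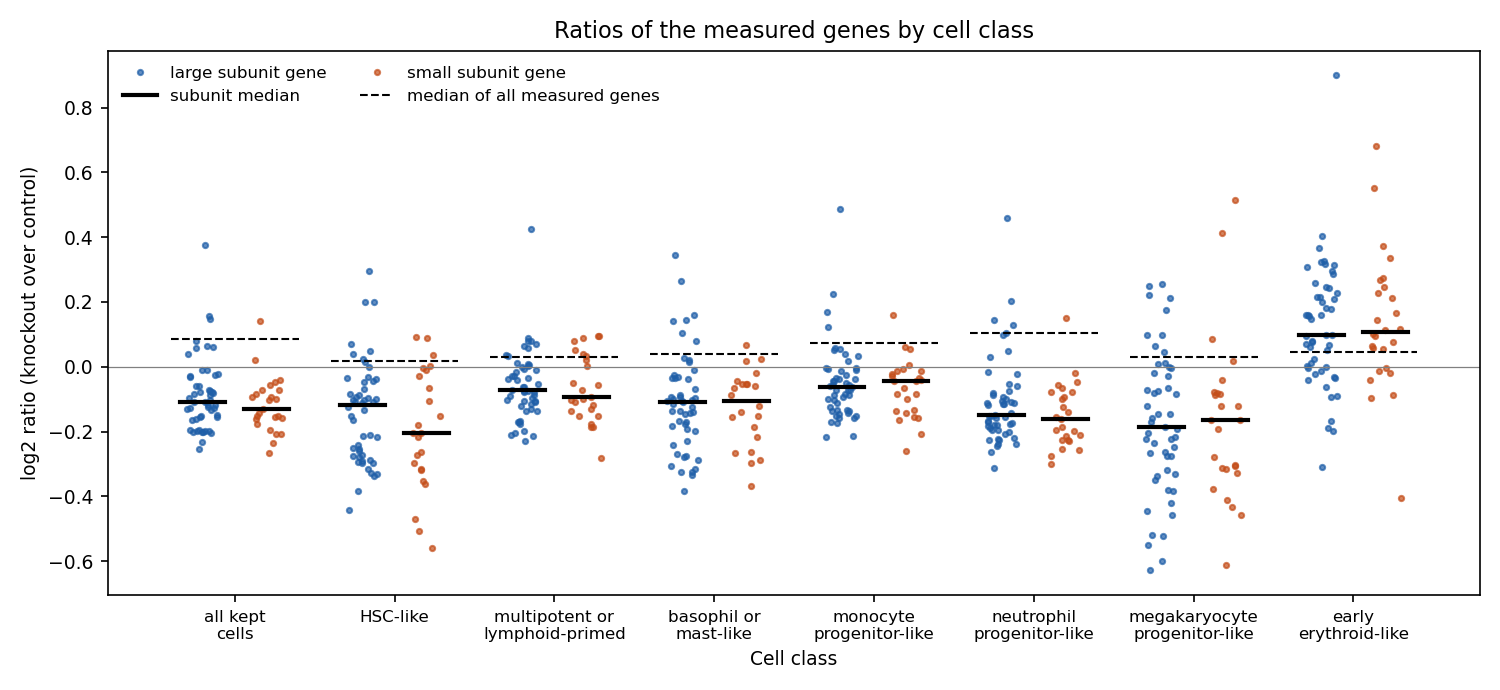
Log2 ratio of knockout over control (vertical axis) for each measured member (points, blue large and red small subunit) over all kept cells and in 7 classes (horizontal axis), with thick lines for subunit medians and dashed lines for the median of all measured genes. Subunit medians lie below 0 in each class except early erythroid-like cells, where they are 0.10 and 0.11.

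Early erythroid-like cells stood on the other side. The large subunit went from 6409 CPM (6322 to 6498) in control to 6972 CPM (6901 to 7044) in knockout, a log2 ratio of 0.12, and the small from 2810 to 2940 CPM, a log2 ratio of 0.07. Of 78 members 22 were below 0 (43.4% of all measured genes), 9 were at 0.32 or more (16.8%) and 1, Mrps24, at −0.32 or less (11.4%). The class was not the same mix in both libraries. All 7 erythroid markers were detected in both, but they summed to 3850 CPM in control and 2977 CPM in knockout. Hba-a1, the alpha globin of red cells, was at 1142 and 385 CPM, and Car1, a carbonic anhydrase of early red cells, at 1866 and 1988 CPM. Neutrophil progenitor markers summed to 1031 and 211 CPM in the same cells, and the part of these shifts in the result was not tested. Megakaryocyte progenitor-like cells (122 and 94) went the other way, from 4158 to 3660 CPM for the large and from 1951 to 1725 CPM for the small subunit. Of their 77 measured members 61 were below 0 (46.4%) and 20 at −0.32 or less (12.5%). The 7 megakaryocyte progenitor markers summed to 4597 CPM in control and 2017 CPM in knockout in this class, and the part of that shift in the result was not tested. Only 26.2% of the control and 7.45% of the knockout cells carried the same name when Leiden clusters were named by the same markers.

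Around the peptidyl transferase centre and the factor-binding stalk of the large subunit, differences were small. Mrpl12, the stalk protein that has also been found bound to the mitochondrial RNA polymerase, was at 210 CPM in control and 192 CPM in knockout (log2 ratio −0.12, interval −0.15 to −0.10). Mrpl11, at the base of the stalk, was at 80.2 and 73.4 CPM (−0.13). Mrpl10, which anchors Mrpl12, was at 25.7 and 26.4 CPM (0.04, interval −0.02 to 0.10), and its interval held 0. Mrpl3, whose protein reaches toward the peptidyl transferase centre, was at 51.8 and 54.0 CPM (0.06), and it turned to −0.03 under the median-ratio scaling. Of the stalk mRNAs, Mrpl12 and Mrpl11 thus lay below 0, and Mrpl10 was not set apart from 0. Mrpl10 and Mrpl3 both lay below 0.08, the median of all measured genes.

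Among members with enzyme-like or tethering roles, Mrpl58, a peptidyl-tRNA hydrolase that frees stalled ribosomes and is also built into the large subunit, was at 69.1 CPM in control and 57.9 CPM in knockout (−0.25). It was lower in all 5 compared classes, from 36.2 to 31.2 CPM in HSC-like and from 81.0 to 67.5 CPM in neutrophil progenitor-like cells. Mrpl44, with a fold of the RNase III family, was at 44.7 and 42.4 CPM (−0.08). Mrpl45 was at 39.6 and 44.2 CPM (0.16, interval 0.11 to 0.21), higher in knockout in 4 of the 5 classes and at 39.2 and 38.3 CPM in HSC-like cells.

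Mrpl19, a large subunit protein with a bacterial homologue, was the one member at least 1.2-fold higher in knockout. Over all kept cells it had 7726 UMIs in control and 8323 in knockout, 46.4 and 60.2 CPM, a log2 ratio of 0.37 (0.33 to 0.42). It was higher by 0.30 in HSC-like cells, from 31.8 CPM in control, and went from 32.7 to 43.9 in MPP/LMPP-like, from 61.1 to 84.1 in neutrophil progenitor-like and from 39.4 to 55.2 CPM in monocyte progenitor-like cells. In basophil or mast-like cells it went from 34.8 to 38.5 CPM, where the interval (−0.15 to 0.44) held 0, and in early erythroid-like cells from 38.2 to 71.3 CPM. Every compared class thus had the higher value in the knockout library. The gene lies on chromosome 6 from 81957851 to 81965958, minus strand (GENCODE vM21 on GRCm38). In the last 500 bases of its exons it overlaps Gcfc2 on the opposite strand, and the labels do not say whether counting used strand. Gcfc2 was at 10.6 CPM in control and 13.5 CPM in knockout (log2 ratio 0.35), in the same direction. Whether reads of one gene were counted for the other was not tested. Overlaps on either strand touched 10 members. On the opposite strand they touched 9, among those named here also Mrpl10, Mrpl12 and Mrps18b.

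In the small subunit, Mrps28 had the lowest ratio and was the one member at least 1.2-fold lower over all kept cells, at 111 CPM in control and 92.2 CPM in knockout (−0.27, interval −0.30 to −0.23). It went from 64.8 to 52.0 CPM in HSC-like, from 69.3 to 61.3 in MPP/LMPP-like, from 132 to 109 in neutrophil progenitor-like, from 116 to 97.4 in monocyte progenitor-like and from 72.8 to 60.6 CPM in basophil or mast-like cells. All 5 classes were lower in knockout, with intervals below 0. In early erythroid-like cells it was level, at 166 and 165 CPM. Mrps14, a small subunit protein with a bacterial homologue, followed at 223 and 190 CPM (−0.24). Mrps12, part of the decoding centre, was at 68.9 and 67.0 CPM (−0.04). Mrps16, with a bacterial homologue, was at 146 and 131 CPM (−0.16), and Mrps22 at 31.4 and 28.1 CPM (−0.16).

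Of the 3 genes related to bacterial S18, whose proteins occupy different places, Mrps18c of the small subunit was at 126 and 111 CPM (−0.18). Mrps18b, also of the small subunit, was at 59.7 and 56.0 CPM (−0.09). Mrps18a, whose protein sits in the large subunit, was at 67.3 and 60.4 CPM (−0.16). All 3 were lower in knockout. Mrps30, the other large subunit protein with a small subunit name, was at 43.7 and 43.4 CPM (−0.01, interval −0.06 to 0.04). Mrps36, now known as a protein of the 2-oxoglutarate dehydrogenase complex rather than of the ribosome, was at 88.1 and 79.5 CPM (−0.15), within the range of the ribosomal members.

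Members were also split by origin, with Mrps18a and Mrps18b counted as mitochondria-specific. The 30 large subunit genes with a bacterial homologue had a median log2 ratio of −0.11 over all kept cells and the 21 mitochondria-specific ones −0.08. In the small subunit the medians were −0.10 for 15 genes with a bacterial homologue and −0.14 for 9 measured mitochondria-specific ones, with Mrps28 left out of the split. These compare with 0.08 for all measured genes. The 5 ribosomal proteins with other kinds of names had a median of −0.13, from Chchd1 at 166 and 146 CPM (−0.18) to Ptcd3, a mitochondria-specific protein of the small subunit, at 34.3 and 36.3 CPM (0.08), and 3 of the 5 were below 0.

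Genes of the same pathway outside the ribosome had medians from −0.03 to 0.11, against 0.08 for all measured genes, of which 32.0% were below 0. Of 25 assembly and rRNA processing factors 7 were measured, with a median of −0.03 and 5 below 0, from Malsu1, an assembly factor of the large subunit, at 45.4 and 39.5 CPM (−0.20) to Dhx30, an RNA helicase, at 36.8 and 45.0 CPM (0.29). Of 18 translation factors and partners 8 were measured, with a median of 0.11 and 1 below 0. These ran from Tsfm, the elongation factor that recharges Tufm, at 52.6 and 50.4 CPM (−0.06) to Guf1, a ribosome-bound GTPase, at 21.5 and 25.1 CPM (0.22). Of 16 mitochondrial aminoacyl-tRNA synthetases 6 were measured, with a median of 0.11 and 2 below 0, from Fars2 (−0.05) to Lars2 at 430 and 516 CPM (0.26). Of 7 transcription and mitochondrial DNA factors 3 were measured, with a median of −0.03, the lowest being Tfam (−0.06) and the highest Tfb2m (0.08). None of these genes was at −0.32 or less or at 0.32 or more, against 1.71% and 6.07% of all measured genes.

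The templates of the mitochondrial ribosome were mostly higher in knockout, as were most measured genes (32.0% below 0, median 0.08). Of 13 mitochondrially encoded mRNAs 11 were above 0, with a median of 0.17, from mt-Nd2 at 1884 and 1724 CPM (−0.13) to mt-Co1 at 6142 and 8518 CPM (0.47). In HSC-like cells their median was 0.26, while the subunit medians were −0.12 and −0.20. In early erythroid-like cells both turned, with a median of −0.25 for the mitochondrial mRNAs and of 0.10 and 0.11 for the subunits. Cytosolic ribosomal protein genes, of which 77 of 80 were measured, had a median of −0.15 and 63 below 0, from Rps2 (−0.32) to Rpl35 (1.38). Their median was −0.12 in early erythroid-like cells, where the mitochondrial ribosomal genes were higher.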

How the data were processed

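Single-cell 3′ mRNA was counted in 1 control and 1 knockout library, grouped by genotype label. Values are whole UMI counts of each gene in each barcode as the authors deposited them, and the submitters' processing notes name Cell Ranger 6.1.2 and mm10. Which annotation release it used, and whether strand was used, the labels do not say.

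Cells needed 500 detected genes and less than 10% of UMIs from mitochondrial DNA (8192 control, 6706 knockout). Scrublet (scanpy 1.11.5) doublets were removed at the control library's automatic threshold in both libraries (146 and 66 cells), and both this threshold and the gates were set with the data in view. A marker counted as positive at 0.2 of its 99.5th percentile and at least 0.5 UMIs per 10000, and a cell took the class with most positive markers, at least 3. Cells with fewer positive markers or with a tie between classes were left without a class. UMIs were summed per class and divided by all UMIs. A gene was measured at 20 CPM in 1 library and 50 UMIs over both. Ratios have exact conditional binomial intervals and sums exact Poisson intervals. Only the ratios and their intervals were checked on simulated data, with counts drawn under the counting error that the intervals assume. Gates, doublet removal, scaling and the spread between libraries were not part of this check.

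Named genes were up to 8 members with the highest and 8 with the lowest ratio among those at least 1.2-fold apart (1 of each), the 5 per subunit with the widest control range over classes, 15 chosen for their roles, and the highest and lowest of each pathway list. Members and lists were chosen with earlier results of these data known. The alternatives tried covered barcode filters, shallow cells, scaling, doublets, the expression floor and class definitions. Promoters are RefSeq sequences on GRCm38.p6, their motifs were chosen with the data in view, and gene positions are from GENCODE vM21.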

Additional observations from a re-analysis of the deposited data

Results flagged for a closer look

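The summed ratio of early erythroid-like cells lay on the other side of 0 from those of the 5 compared classes, with a log2 ratio of 0.12 for the large and 0.065 for the small subunit against −0.06 to −0.14 and −0.07 to −0.17 in the others. The difference between classes was not tested, and each library held 92 (control) or 118 (knockout) such cells, with median depths of 35285 and 44835 UMIs. The small subunit value came to 0.02 under the median-ratio scaling and 0.01 with a total without mitochondrial and cytosolic ribosomal protein genes, and its interval held 0 in both.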

How the results depend on the processing

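With 1 library per group, depth sets the counting error but no value speaks to the spread between mice or preparations. No paired analysis was possible because the labels give no replicate numbers and each group is 1 library. Subunit medians kept their sign under 9 alternatives in the 5 compared classes and under 7 over all kept cells, to which the class definitions do not apply. In HSC-like cells they ran from −0.05 to −0.14 (large) and −0.07 to −0.22 (small), and in MPP/LMPP-like cells from −0.06 to −0.14 and −0.03 to −0.13. Under the median-ratio scaling the medians were −0.19 (large) and −0.21 (small) over all kept cells and −0.25 and −0.27 in neutrophil progenitor-like cells, 2 members were at −0.32 or less and 0 at 0.32 or more (0 and 1 otherwise), and Mrpl3 reversed to −0.025, since all ratios then fall by the median of measured genes. Mrpl10, whose interval held 0 before, lay below that median too.

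The class order of summed control CPM held under each alternative for the large and the small subunit, except where Leiden clusters put MPP/LMPP-like cells at 4208 CPM (large) and 1932 CPM (small), above basophil or mast-like cells at 4006 and 1822 CPM. Leiden clusters gave 5632 and 2697 CPM in neutrophil and 5233 and 2298 CPM in monocyte progenitor-like cells. The stricter barcode filter gave 5639 and 2689 CPM, and 5184 and 2248 CPM, in those 2 classes. Gates with 1 more marker gave 3079 and 1449 CPM in HSC-like, 3432 and 1568 CPM in MPP/LMPP-like, 5619 and 2684 CPM in neutrophil progenitor-like, and 3760 and 1726 CPM in basophil or mast-like cells. A total without mitochondrial and cytosolic ribosomal protein genes gave 4716 and 2210 CPM in HSC-like, 5306 and 2413 CPM in MPP/LMPP-like, 5575 and 2552 CPM in basophil or mast-like, 7618 and 3304 CPM in monocyte progenitor-like, and 8503 and 4051 CPM in neutrophil progenitor-like cells. Apart from the effect of the changed total, the causes were not tested.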
